A study of Mus musculus with 15 samples.

Results

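The genes described here encode the enzymes that bring pyruvate into mitochondria, turn it into acetyl-CoA and carry it through the tricarboxylic acid (TCA) cycle, with the transaminases and malate enzymes that feed and drain the cycle. A list of 32 genes was matched by symbol to probe sets that carry a single gene symbol, with the brightest probe set kept for each gene. Of the 32 genes, 31 had such a probe set, out of 19938 genes in all, and Mpc2, a subunit of the mitochondrial pyruvate carrier, had none. Pdk3 and Pdp2 lay below the filter on low values (a mean of 5.32 on the log2 scale), which left 29 genes among the 12056 tested.

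RNA came from the gastrocnemius, a mixed calf muscle, of male C57BL/6 mice aged 12 months, with 1 mouse on each of 15 arrays. The groups were 4 Sirt3 knockout mice on calorie restriction (CR), 4 Sirt3 knockout mice on the control diet, 4 wildtype mice on CR and 3 wildtype mice on the control diet. Sirt3 encodes a mitochondrial protein deacetylase. The sources used here do not state the kind of Sirt3 allele, the degree of CR or its duration. Values are log2 intensities of 1 probe set, so they compare arrays for a gene and do not rank genes against each other.

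The pyruvate dehydrogenase complex joins glycolysis to the TCA cycle. Its E1 subunit is switched off when a pyruvate dehydrogenase kinase phosphorylates it and is switched on again by a phosphatase, so the balance of kinases and phosphatases sets how much pyruvate a muscle oxidises. Citrate synthase opens the cycle, dehydrogenases within it feed electrons to the respiratory chain, and malate and aspartate exchange carries reducing equivalents between cytosol and mitochondria.

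The genotype labels were checked first. The Sirt3 probe set averaged 5.57 ± 0.49 in knockout arrays (SD, n = 8) and 6.52 ± 0.11 in wildtype arrays (SD, n = 7), and the ranges of 4.94 to 6.19 in knockout and 6.38 to 6.68 in wildtype did not overlap. The fitted log2 difference, knockout minus wildtype averaged over diets, was −0.96 (SE 0.18, limma adjusted p = 0.318). The 7 skeletal muscle markers were bright on every array, with Ckm, the muscle creatine kinase, at 13.11 to 13.30. Marker sets of other tissues lay more than 2 log2 units above the median array on 4 arrays. The mean of 14 male germ cell markers lay 3.40 above the median array in knockout control replicate 1 and 3.96 above it in wildtype control replicate 3, the pancreatic acinar set 7.31 above it in wildtype control replicate 2, and the liver set 2.71 above it in wildtype CR replicate 4. Below that limit, the liver set was also raised by 1.64 in knockout control replicate 2, by 1.62 in wildtype control replicate 1 and by 0.83 in knockout CR replicate 1. In whole muscle, fewer cells of a type and less RNA per cell cannot be told apart.

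Calorie restriction raised 1 of the 29 tested genes when the response was averaged over genotypes, and this was Pdk2. Pdk2 encodes a pyruvate dehydrogenase kinase that is abundant in muscle. Over all 12056 genes the same test called 1.07% (78 higher and 51 lower). No other tested member passed, and the median log2 change of the 29 genes was −0.02, against 0.03 for all tested genes, with 11 members above 0 and 18 below. Without knockout control replicate 3, an array described further on, 20 members were above 0 and 9 below. At an unadjusted limma p under 0.05, 2 members were higher and 1 lower, against 13.7% of all tested genes higher and 6.4% lower.

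Pdk2 read 11.60, 11.64, 11.66 and 11.66 in knockout mice on CR, against 11.34, 11.51, 11.47 and 11.48 in knockout mice on the control diet. In wildtype mice Pdk2 read 11.56, 11.68, 11.62 and 11.48 on CR, against 11.41, 11.35 and 11.29 on the control diet. Every CR array lay above every control array of its own genotype, with wildtype CR replicate 4 the lowest of the CR arrays. Pooled over genotypes, the CR mean was 11.61 ± 0.06 (SD, n = 8) and the control mean was 11.41 ± 0.08 (SD, n = 7). The averaged log2 change was 0.21 (SE 0.04, 95% interval 0.12 to 0.30), a 1.16-fold increase, with a limma adjusted p of 0.0380.

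Within each genotype, Pdk2 changed by 0.19 in knockout (SE 0.06, limma adjusted p = 0.258) and by 0.24 in wildtype (SE 0.06, limma adjusted p = 0.170). The difference of these responses was −0.05 (SE 0.09, 95% interval −0.24 to 0.13). Without the 2 arrays rich in germ cell markers, which are both controls, the log2 change was 0.18 with a limma adjusted p of 0.0902, and without all 4 arrays past the limit it was 0.18 with an adjusted p of 0.247. The second of these fits keeps 1 wildtype control array, which is assumed to vary like the other groups, so it says little of the call. Leaving out 1 array at a time ended the call in 12 of 15 fits, with limma adjusted p-values from 0.0310 to 0.0841. It held without wildtype control replicate 1, wildtype CR replicate 4 or knockout CR replicate 1. The mean of the skeletal muscle marker set also differed between diets. Relative to the median array it ran from −0.01 to 0.06 in knockout on CR and from −0.08 to 0.02 in knockout on the control diet, and from −0.05 to 0.08 in wildtype on CR and from −0.10 to −0.06 in wildtype on the control diet. Within the set, Mb was lower on CR, at 10.97 to 11.81 against 11.82 to 12.11 in wildtype and 11.33 to 11.76 against 11.83 to 12.12 in knockout. Ckm, Mylpf, Tnnt3, Myh4 and Actn3 were higher on CR in both genotypes. The fast fibre set ran from −0.04 to 0.07 on CR and from −0.14 to −0.07 on the control diet in wildtype. In knockout it ran from 0 to 0.05 and from −0.06 to 0.04. The part of these markers in the Pdk2 result was not tested.

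The starts of Pdk2 and of the 2 members next to it in the averaged diet comparison, Mdh1 and Pcx, are shown because these genes had the smallest p-values there. The sequences are the 250 bases upstream of each annotated start in RefSeq (mouse GRCm38.p6), written 5′ to 3′ on the gene's strand. Capitals mark CACGTG, an E-box. Pdk2 lies on the minus strand with windows at chr11:95040876-95041125 and chr11:95041372-95041621, Mdh1 on the minus strand at chr11:21571935-21572184, and Pcx on the plus strand at chr19:4510222-4510471 and chr19:4594069-4594318.
Pdk2 first window: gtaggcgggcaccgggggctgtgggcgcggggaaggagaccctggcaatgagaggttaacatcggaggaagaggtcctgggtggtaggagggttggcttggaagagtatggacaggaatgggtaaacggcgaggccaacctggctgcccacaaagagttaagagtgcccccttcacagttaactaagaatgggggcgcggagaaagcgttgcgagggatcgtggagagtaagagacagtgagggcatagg
Pdk2 second window: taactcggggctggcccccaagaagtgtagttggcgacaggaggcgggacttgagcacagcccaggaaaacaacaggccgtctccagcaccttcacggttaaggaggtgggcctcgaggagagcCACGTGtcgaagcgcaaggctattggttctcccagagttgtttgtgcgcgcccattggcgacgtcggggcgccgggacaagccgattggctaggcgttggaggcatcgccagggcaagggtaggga
Mdh1: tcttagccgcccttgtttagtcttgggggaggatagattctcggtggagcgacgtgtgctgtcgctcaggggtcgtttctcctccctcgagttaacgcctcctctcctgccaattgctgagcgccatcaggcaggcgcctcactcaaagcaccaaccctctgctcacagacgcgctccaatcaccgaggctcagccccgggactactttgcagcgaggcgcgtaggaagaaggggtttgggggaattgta
Pcx first window: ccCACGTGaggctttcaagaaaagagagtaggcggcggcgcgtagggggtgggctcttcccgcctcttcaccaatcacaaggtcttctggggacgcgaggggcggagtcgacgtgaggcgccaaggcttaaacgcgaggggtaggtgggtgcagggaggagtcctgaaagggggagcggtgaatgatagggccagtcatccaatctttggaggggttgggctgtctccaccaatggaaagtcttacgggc
Pcx second window: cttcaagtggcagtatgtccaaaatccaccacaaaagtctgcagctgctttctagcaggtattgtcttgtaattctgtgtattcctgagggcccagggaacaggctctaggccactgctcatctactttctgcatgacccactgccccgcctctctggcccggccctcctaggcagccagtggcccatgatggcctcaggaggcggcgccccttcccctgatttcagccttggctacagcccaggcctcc

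In these windows the E-box starts 126 bases upstream of the second Pdk2 start and 248 bases upstream of the first Pcx start. Of the 32 genes, 29 matched the promoter table, with 39 windows, and Idh3a, Me2 and Pdp1 were not in it. An E-box occurs in 7 of those windows, in Ogdh, Pcx, Pdk2, Pdp2 and Pdpr, and in 6.02% of all 32851 mouse windows of the same kind. Other motifs searched on both strands were the ERR half-site AAGGTCA (4.08% of all windows, Got1 among the members), the NRF1 motif (3.74%, Sucla2), the FOXO motif GTAAACA (3.17%, no member), the ETS motif CCGGAAG (6.91%, Idh3g and Mpc1), the glucocorticoid receptor half-site AGAACA (16.08%, Aco1, Idh1, Pdk1 and Suclg1) and the AP-1 motif TGACTCA (4.46%, no member). None of these motifs contains another, and a match is a description of the sequence.

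**Figure D1:**
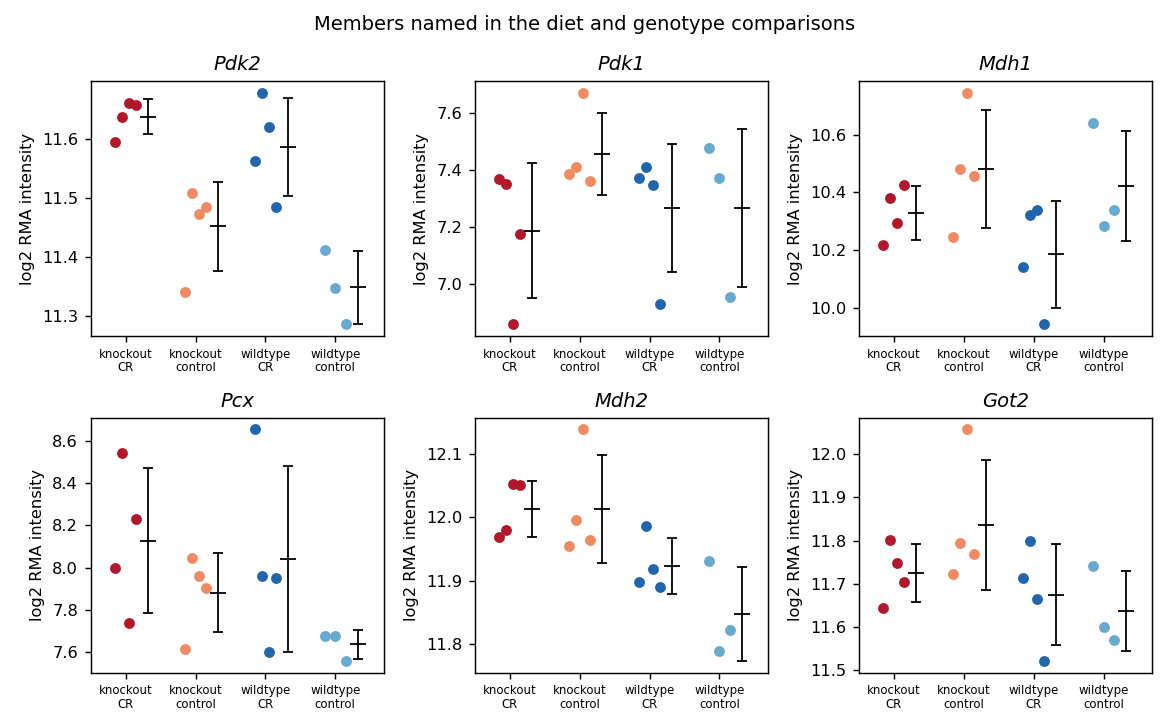
Log2 intensity (vertical axis) of Pdk2, Pdk1, Mdh1, Pcx, Mdh2 and Got2 on each array, in 1 panel a gene, with groups from left to right knockout CR, knockout control, wildtype CR and wildtype control; points are arrays and bars are the mean with SD. In the Pdk2 panel the CR points lie above the control points of the same genotype, while in the other panels the diets overlap.

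The other kinases and the phosphatases moved less evenly. Pdk1, a kinase induced by hypoxia in many cells, read 7.37, 7.35, 6.86 and 7.17 in knockout on CR, against 7.38, 7.41, 7.67 and 7.36 in knockout on the control diet. In wildtype Pdk1 read 7.37, 7.41, 7.35 and 6.93 on CR, against 7.48, 7.37 and 6.95 on the control diet. The ranges overlap in both genotypes, and the log2 change in knockout was −0.27 (SE 0.14, limma adjusted p = 0.479). Without knockout CR replicate 3, which holds the lowest Pdk1 value, it was −0.16, and without knockout control replicate 3, which holds the highest, −0.20.

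Pdk3, a kinase that was too dim to be tested, averaged near 5 except on 2 arrays. It read 5.00, 5.22, 4.91 and 5.07 in knockout on CR, 6.21, 5.11, 5.14 and 5.02 in knockout on the control diet, 5.12, 5.11, 5.09 and 5.13 in wildtype on CR, and 5.04, 5.04 and 6.34 in wildtype on the control diet. The 2 high values are on the 2 arrays with the highest germ cell set. All 14 of its markers had a probe set, and the set ran from −0.42 to 0.51 in knockout on CR, from −0.20 to 3.40 in knockout on the control diet, from −0.40 to 0.77 in wildtype on CR and from 0 to 3.96 in wildtype on the control diet. Its part in the Pdk3 values was not tested. The phosphatase Pdp1 changed by −0.14 in knockout and 0.03 in wildtype, its regulatory subunit Pdpr by −0.06 in knockout and 0.00 in wildtype, and neither passed the test. Pdp2, the other phosphatase, averaged 5.32 in knockout on CR, 5.38 in knockout on the control diet, 5.23 in wildtype on CR and 5.06 in wildtype on the control diet.

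**Figure D2:**
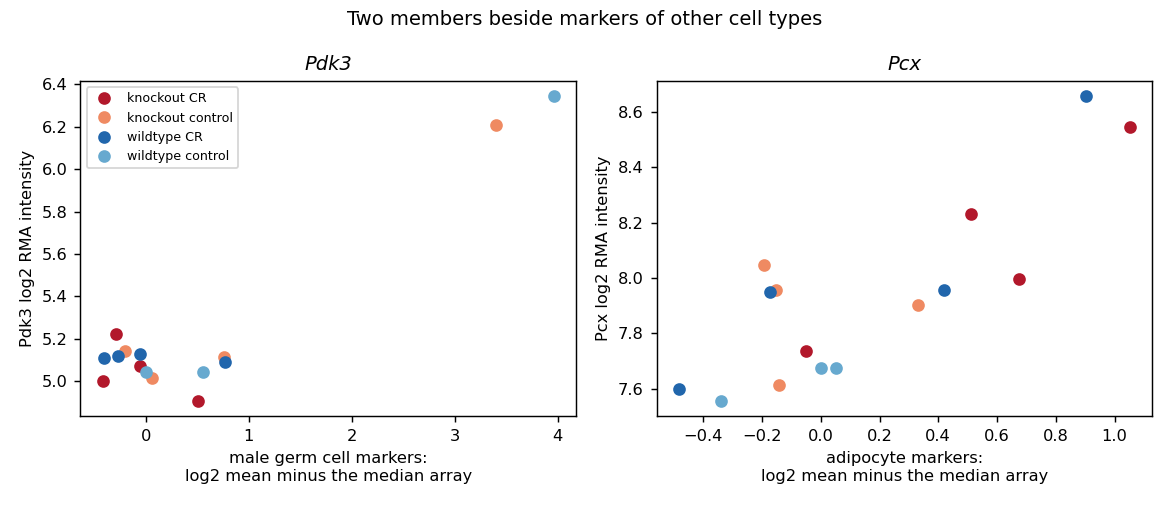
Each point is 1 of the 15 arrays. The left panel sets Pdk3 (log2 intensity) against the mean of the germ cell markers and the right panel sets Pcx against the mean of the adipocyte markers, both relative to the median array on the log2 scale. The 2 arrays with a germ cell set above 3 have Pdk3 at 6.21 and 6.34.

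The 4 catalytic and core subunits of the pyruvate dehydrogenase complex did not pass in any comparison. Their averaged diet changes were −0.08 for Pdha1 and −0.09 for Pdhb (the E1 subunits), −0.07 for Dlat (the E2 acetyltransferase) and 0.02 for Pdhx (the E3-binding protein). Mpc1, the measured subunit of the pyruvate carrier, changed by 0.03. RefSeq lists pseudogenes of Mpc1 and Got2, and whether these probe sets also detect them was not tested.

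The 12 tested genes of the mitochondrial cycle spanned −0.10 to 0.04 in the averaged diet comparison, with 4 above 0 and 8 below, and none passed. Cs, citrate synthase, read 11.23, 11.27, 11.20 and 11.17 in knockout on CR, against 11.08, 11.16, 11.38 and 11.24 in knockout on the control diet. In wildtype Cs read 11.10, 11.23, 11.13 and 11.06 on CR, against 11.20, 11.14 and 10.99 on the control diet. The groups overlap throughout, and the averaged log2 change was 0.01 (95% interval −0.10 to 0.13). The 3 subunits of NAD-dependent isocitrate dehydrogenase, Idh3a, Idh3b and Idh3g, changed by −0.01, 0.03 and 0.03. The oxoglutarate dehydrogenase subunits Ogdh, Dlst and Dld changed by −0.08, −0.05 and −0.08, and the succinate-CoA ligase subunits Suclg1, Suclg2 and Sucla2 by −0.02, −0.10 and −0.07. Fumarase (Fh1) changed by −0.01 and mitochondrial malate dehydrogenase (Mdh2) by 0.04.

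Suclg2, the GTP-forming ligase subunit, was among the members with the smallest p in knockout mice. It read 7.97, 7.85, 7.64 and 7.51 in knockout on CR, against 7.83, 7.86, 8.23 and 7.90 in knockout on the control diet, with overlapping ranges. The log2 change was −0.22 (SE 0.12, limma adjusted p = 0.509), and it was −0.12 without knockout control replicate 3 and −0.14 without knockout CR replicate 4. A second Suclg2 probe set gave −0.15.

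Pcx, pyruvate carboxylase, which refills the cycle with oxaloacetate, had the largest averaged diet change of the tested members. It read 8.00, 8.55, 7.74 and 8.23 in knockout on CR, against 7.61, 8.05, 7.96 and 7.90 in knockout on the control diet. In wildtype Pcx read 8.66, 7.96, 7.60 and 7.95 on CR, against 7.67, 7.67 and 7.56 on the control diet. CR and control arrays overlap in both genotypes, and the log2 changes were 0.33 averaged (SE 0.15, limma adjusted p = 0.233) and 0.41 in wildtype (SE 0.21, limma adjusted p = 0.422). Without wildtype CR replicate 1 the wildtype change was 0.20.

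The 2 highest Pcx values stand on the 2 arrays with the most adipocyte signal, wildtype CR replicate 1 and knockout CR replicate 2. Pyruvate carboxylase is abundant in adipocytes. Of 9 adipocyte markers, 8 had a probe set, and their mean relative to the median array ran from −0.05 to 1.05 in knockout on CR, from −0.19 to 0.33 in knockout on the control diet, from −0.48 to 0.90 in wildtype on CR and from −0.34 to 0.05 in wildtype on the control diet. The defining markers Adipoq (6.41 to 8.86) and Plin1 (6.23 to 7.79) lay above the filter on every array. The part of adipocyte RNA in the Pcx values was not tested. The mitochondrial malic enzymes Me2 and Me3, which turn malate into pyruvate, changed by −0.03 and 0.07.

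Cytosolic malate dehydrogenase, Mdh1, read 10.22, 10.38, 10.29 and 10.43 in knockout on CR, against 10.24, 10.48, 10.75 and 10.46 in knockout on the control diet. In wildtype Mdh1 read 10.14, 10.32, 10.34 and 9.94 on CR, against 10.64, 10.29 and 10.34 on the control diet. The diets overlap in both genotypes, with wildtype CR replicate 4 the lowest array and knockout control replicate 3 the highest. The log2 change was −0.19 averaged (SE 0.09, limma adjusted p = 0.229) and −0.24 in wildtype (SE 0.12, limma adjusted p = 0.426). The wildtype change was −0.13 without wildtype control replicate 1 and −0.15 without wildtype CR replicate 4. The cytosolic and mitochondrial aspartate aminotransferases Got1 and Got2 changed by −0.02 and −0.04, and the cytosolic enzymes Aco1 and Idh1 by 0.15 and 0.11.

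**Figure D3:**
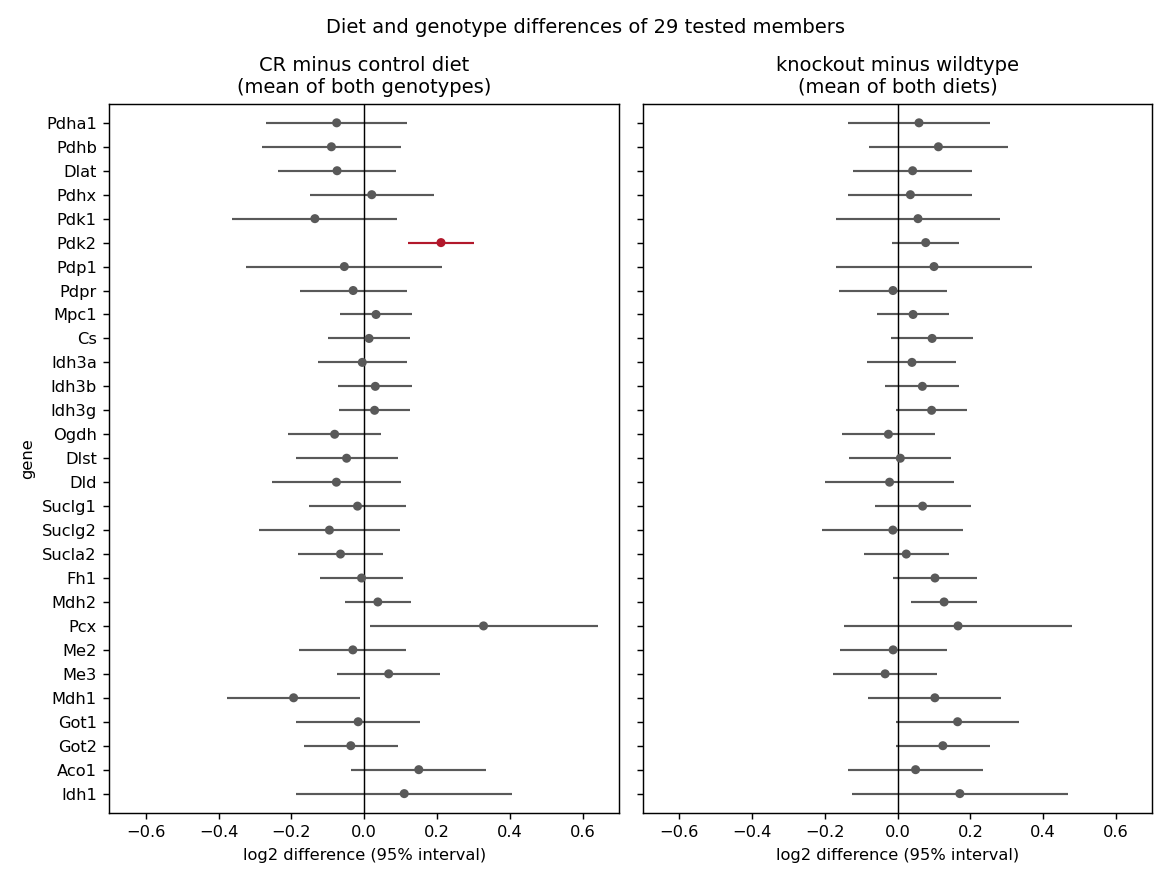
Log2 difference with its 95% interval for each of the 29 tested members, ordered by role, for CR minus control averaged over genotypes and for knockout minus wildtype averaged over diets. Pdk2, drawn in red, is the member past the threshold in the diet panel, and in the genotype panel every interval lies within 0.5 of 0.

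Taken genotype by genotype, no member passed for CR in knockout mice (background 0.0664%) or in wildtype mice (background 0.124%). At an unadjusted limma p under 0.05, 1 member was higher and 0 lower in each genotype, against 6.79% of all tested genes higher and 5.17% lower in knockout and 9.72% higher and 3.4% lower in wildtype. Pdk2 was that member in both, and the member whose arrays did not overlap (background 3.91% higher and 3.08% lower in knockout, and 9.55% higher and 2.95% lower in wildtype). No member lay lower on CR without overlap in either genotype. The median log2 change of the members was −0.06 in knockout, against 0.01 for all genes, and 0.02 in wildtype, against 0.04 for all genes. The knockout count of 9 members above 0 and 20 below turned to 18 above and 11 below without knockout control replicate 3.

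The diet response did not differ by genotype for any member after adjustment (0 of 29, background 0%). At an unadjusted p under 0.05 0 members were higher and 0 lower, against 1.33% and 4.39% of all genes. The smallest p-values belonged to Me2 at −0.24 (SE 0.14, limma adjusted p = 0.863), Suclg2 at −0.24 (SE 0.18, limma adjusted p = 0.929) and Idh1 at −0.35 (SE 0.28, limma adjusted p = 0.933), each the knockout response minus the wildtype response. Single arrays moved these values: Suclg2 was −0.12 without wildtype control replicate 3 and −0.15 with knockout control replicate 3 left out, and Me2 was −0.15 without knockout CR replicate 3. These intervals are wide, and for 23 of 29 members the 95% interval of the difference lay within 0.5 of 0, a 1.41-fold change.

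Idh1, the cytosolic NADP-dependent isocitrate dehydrogenase, read 7.55, 7.40, 6.97 and 7.77 in knockout on CR, against 7.49, 7.22, 7.85 and 7.38 in knockout on the control diet. In wildtype Idh1 read 7.55, 7.62, 7.07 and 7.47 on CR, against 7.46, 7.16 and 6.81 on the control diet. The 4 ranges overlap. The Idh1 difference of responses was −0.18 without wildtype control replicate 3, −0.20 without knockout CR replicate 3 and −0.23 without knockout control replicate 3. Me2 read 5.61, 5.48, 5.23 and 5.61 in knockout on CR, against 5.59, 5.52, 5.85 and 5.58 in knockout on the control diet, and 5.64, 5.56, 5.53 and 5.74 in wildtype on CR, against 5.47, 5.50 and 5.61 in wildtype on the control diet. It lay close to the filter on low values on all arrays.

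**Figure D4:**
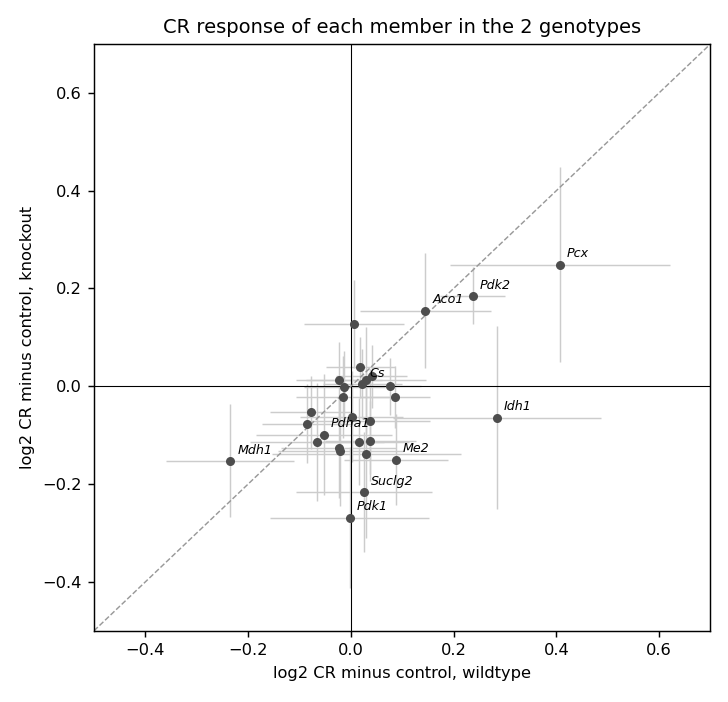
CR response (log2, CR minus control) of each tested member in knockout mice (vertical axis) against wildtype mice (horizontal axis), with bars of 1 SE; the diagonal marks equal responses. Pdk2 lies at 0.19 in knockout and 0.24 in wildtype.

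Sirt3 knockout was compared with wildtype on each diet. No member passed on CR (background 0.0166%), on the control diet (background 0%) or averaged over diets (background 0%). On the control diet 27 of 29 members were above 0, with a median of 0.09, against 0.02 for all tested genes. At an unadjusted limma p under 0.05, 2 members were higher and 0 lower on the control diet, against 5.08% of all genes higher and 1.94% lower, and 0 higher and 0 lower on CR, against 2.58% and 3.34% of all genes. Averaged over diets 1 member was higher and 0 lower, against 4.33% higher and 2.85% lower.

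Mdh2, mitochondrial malate dehydrogenase, had the smallest p on the control diet. It read 11.95, 12.00, 12.14 and 11.96 in knockout on the control diet, against 11.93, 11.79 and 11.82 in wildtype on the control diet. On CR it read 11.97, 11.98, 12.05 and 12.05 in knockout, against 11.90, 11.99, 11.92 and 11.89 in wildtype. The ranges do not overlap on the control diet (background 3.71% higher and 1.29% lower) and overlap on CR, where 0 members were without overlap (background 1.84% higher and 2.76% lower). Knockout minus wildtype came to 0.17 on the control diet (SE 0.06, limma adjusted p = 0.651), 0.09 on CR (SE 0.06, limma adjusted p = 0.894) and 0.13 averaged (SE 0.04, limma adjusted p = 0.626).

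Got2, the mitochondrial aspartate aminotransferase, read 11.72, 11.79, 12.06 and 11.77 in knockout on the control diet, against 11.74, 11.60 and 11.57 in wildtype on the control diet. Got1, its cytosolic counterpart, read 10.91, 11.10, 11.50 and 11.25 in knockout on the control diet, against 11.14, 10.82 and 10.97 in wildtype on the control diet. Both overlap between genotypes and are highest in knockout control replicate 3. The control-diet differences were 0.20 for Got2 (SE 0.09, limma adjusted p = 0.672) and 0.22 for Got1 (SE 0.12, limma adjusted p = 0.746), and without that array 0.12 for each. Without wildtype control replicate 2 the Got1 difference was 0.14. Averaged over diets they were 0.12 for Got2 and 0.16 for Got1, each with a limma adjusted p of 0.698. A second Got2 probe set gave 0.20 on the control diet.

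On CR the members with the smallest p were Idh3g, Mdh2 and Fh1, in that order. Idh3g, a regulatory subunit of isocitrate dehydrogenase, read 11.76, 11.68, 11.74 and 11.84 in knockout on CR, against 11.65, 11.69, 11.60 and 11.67 in wildtype on CR, a difference of 0.10 (SE 0.06, limma adjusted p = 0.870). Fh1, fumarase, read 9.95, 9.98, 9.97 and 10.16 in knockout on CR, against 9.92, 9.95, 9.84 and 9.91 in wildtype on CR, a difference of 0.11 (SE 0.07, limma adjusted p = 0.904) that was 0.06 without knockout CR replicate 4. Both pairs of ranges overlap by a small margin. The CR and genotype comparisons share arrays, so their values are not independent of each other.

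The control-diet shift rested on 1 array. In knockout control replicate 3, 28 of 29 tested members lay above their own mean and 23 of 29 were at their highest of all 15 arrays, with a mean deviation of 0.26, while the other arrays ran from −0.12 to 0.08. Pdk2 was the member below its mean there. The other-tissue marker sets of that array were near the median, with germ cell at −0.20, pancreatic acinar at −0.13, liver at 0 and adipocyte at −0.15. The slow fibre set was at −0.18, the fast fibre set at 0.04 and the skeletal muscle set at 0.02. Of the muscle markers, Mb (12.12), Myh1 (11.98) and Myh2 (12.27) were at their highest of all 15 arrays there. Ckm, Myh4, Tnnc2, Tnni2, Tnnt3, Actn3 and Pvalb were below their medians. The part of these markers in the members' values was not tested. Without knockout control replicate 3 the control-diet median of the members was 0.03, with 17 above 0 and 12 below, against 0.02 for all genes. The median averaged over diets was 0.03, with 19 above and 10 below. The shift was not particular to the members. For 31 tested genes around these steps, described below, the control-diet median fell from 0.11 to 0.04 without that array. Of these, Sdha (11.22), Sdhb (10.23), Sdhc (10.61) and Sdhd (9.62) were highest of all 15 arrays on it, while Idh2, Ldha and Pdk4 were not.

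**Figure D5:**
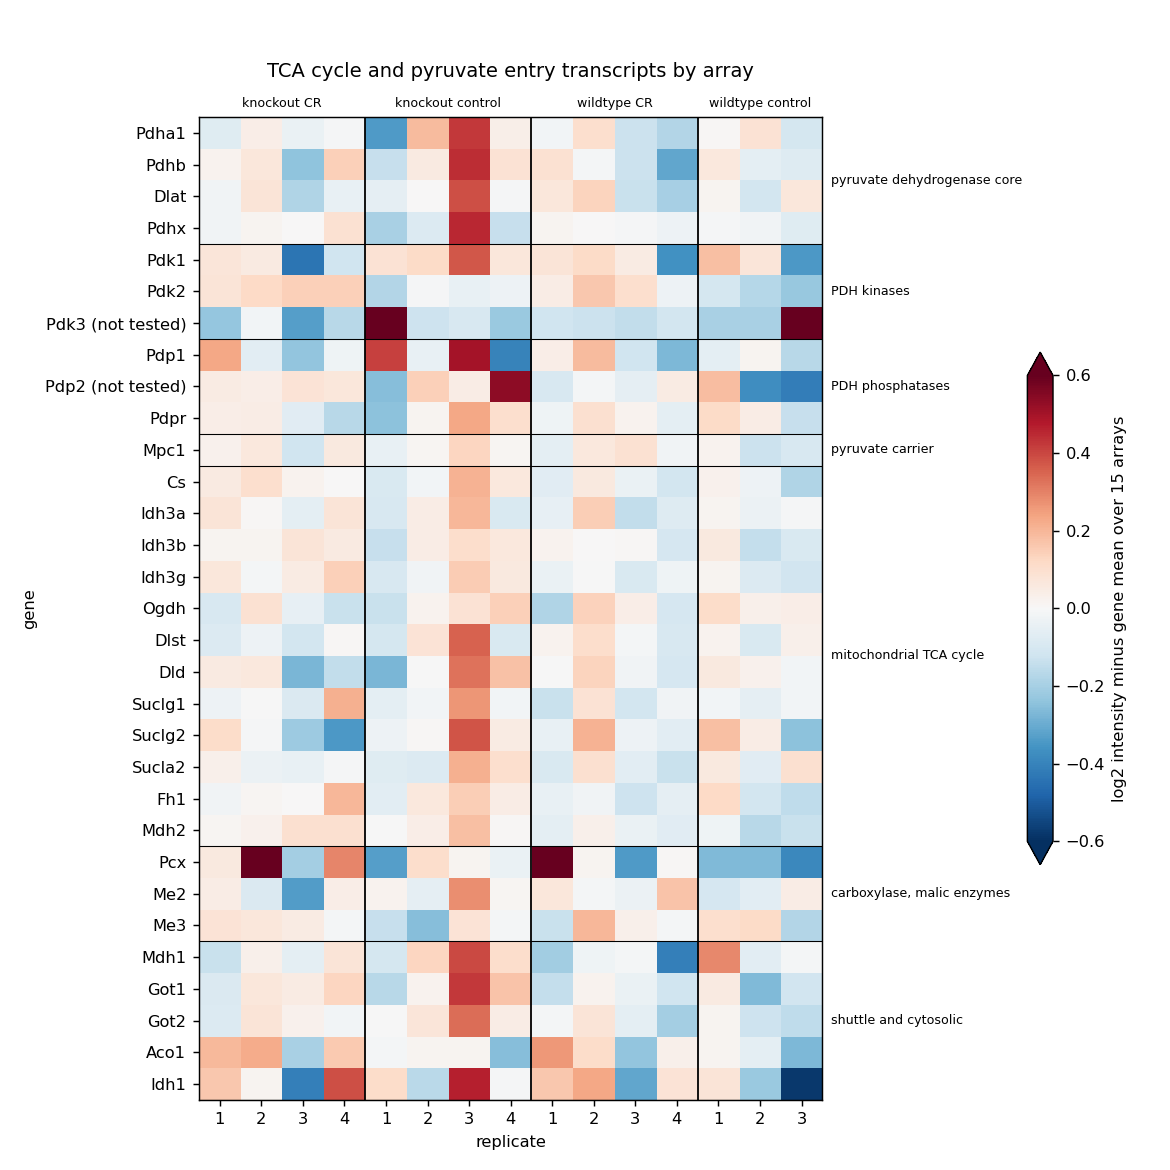
Heat map of the log2 deviation of each member (rows, by role) from its mean over all 15 arrays (columns, grouped from left as knockout CR, knockout control, wildtype CR and wildtype control). The column of knockout control replicate 3 is high for nearly all rows, and the Pdk2 row is higher in the CR columns than in the control columns of the same genotype.

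The tested members varied together from mouse to mouse within groups. As a description over 15 arrays that share a normalization, the median pairwise Pearson r of within-group deviations was 0.53 over the 29 members (Spearman 0.45), 0.74 over the 4 core subunits of the pyruvate dehydrogenase complex and 0.60 over the 12 genes of the mitochondrial cycle, against 0.042 over all tested genes. Without knockout control replicate 3 the values were 0.37, 0.59 and 0.42, against 0.048. The slow fibre set ran from −0.74 in wildtype CR replicate 4 to 1.18 in wildtype CR replicate 3, and the members' mean deviation was −0.10 and −0.07 on those arrays. Wildtype CR replicate 4 was also the lowest array for the muscle markers Mb (10.97), Myh1 (11.03) and Myh2 (11.29). Wildtype control replicate 3, where the members' mean deviation was −0.12, had Mb at 11.87, above its median of 11.81. The relation of the members to fibre type was not tested. The within-group SD was smallest for Mdh2 (0.0637) and Pdk2 (0.0659) and largest for Pcx (0.311) and Idh1 (0.293).

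A further 35 genes around these steps were listed, among them aconitase 2, the succinate dehydrogenase subunits, lactate dehydrogenases and citrate carriers, of which 31 were tested, and 0 passed in each of the 7 comparisons. Under other settings, for CR averaged over genotypes, Dhtkd1 passed with probe sets tested singly, with a trended robust prior and without knockout control replicate 4, and Ldha with the trended robust prior. At an unadjusted limma p under 0.05, 5 of 31 were higher and 1 lower for CR averaged over genotypes, against 13.7% and 6.4% of all tested genes. For CR in knockout the counts were 0 and 0, against 6.79% and 5.17%, and for CR in wildtype 3 and 1, against 9.72% and 3.4%. For knockout minus wildtype, 0 were higher and 0 lower on CR (2.58% and 3.34% of all genes), 4 and 0 on the control diet (5.08% and 1.94%), and 3 and 0 averaged over diets (4.33% and 2.85%). In the difference of the responses 0 were higher and 1 lower, against 1.33% and 4.39%.

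Dhtkd1, the E1 component that decarboxylates 2-oxoadipate in lysine breakdown and works with Dlst and Dld, had the smallest p of these genes for CR averaged over genotypes, where its averaged response was 0.32 on the log2 scale (SE 0.07, limma adjusted p = 0.0541). It read 5.88, 5.95, 5.83 and 5.77 in knockout on CR, 5.65, 5.77, 5.62 and 6.02 in knockout on the control diet, 5.77, 6.18, 5.80 and 5.82 in wildtype on CR, and 5.37, 5.34 and 5.33 in wildtype on the control diet. The 3 wildtype control arrays were the lowest of all and lay close to the filter on low values, 5.32. The Dhtkd1 change was 0.54 in wildtype (SE 0.11, limma adjusted p = 0.0781), and the difference of responses was −0.45 (SE 0.15, limma adjusted p = 0.824). Knockout minus wildtype was 0.42 on the control diet (SE 0.11, limma adjusted p = 0.599) and 0.19 averaged (SE 0.07, limma adjusted p = 0.645). All of these differences use those 3 arrays.

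Ldha, the muscle form of lactate dehydrogenase, changed by 0.15 averaged (SE 0.04, limma adjusted p = 0.0848), by 0.11 in knockout (SE 0.05, limma adjusted p = 0.442) and by 0.19 in wildtype (SE 0.06, limma adjusted p = 0.201). Pck1, the cytosolic phosphoenolpyruvate carboxykinase, changed by 0.89 in knockout (SE 0.43, limma adjusted p = 0.432). Pck1 read 7.92, 8.17, 6.78 and 8.15 in knockout on CR, against 5.98, 7.07, 6.72 and 7.71 in knockout on the control diet, and the knockout CR arrays with the higher adipocyte sets (0.67, 1.05 and 0.51, against −0.05) are those with the higher Pck1. The part of adipocyte RNA in Pck1 was not tested. Lias, which makes the lipoyl group of Dlat and Dlst, had a difference of responses of −0.22 (SE 0.11, limma adjusted p = 0.863). Slc25a1, the mitochondrial citrate carrier, differed between genotypes by 1.45 on the control diet (SE 0.56, limma adjusted p = 0.662) and by 0.89 averaged (SE 0.38, limma adjusted p = 0.645). On CR, Glud1, glutamate dehydrogenase, differed by −0.20 (SE 0.11, limma adjusted p = 0.864) and Acss1, mitochondrial acetyl-CoA synthetase, by 0.30 (SE 0.20, limma adjusted p = 0.904).

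The intervals bound what these arrays could miss. For CR averaged over genotypes the 95% interval lay within 0.5 of 0 for 28 of 29 members and within 0.25 of 0, a 1.19-fold change, for 18. For knockout minus wildtype averaged over diets it lay within 0.5 for all 29 tested members and within 0.25 for 20. These intervals are not adjusted for the number of genes.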

How the data were processed

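Biotin-labelled muscle RNA was measured on Affymetrix arrays, per the labels' protocols. The authors deposited log2 intensities made with RMA, per the submitters' processing notes. RMA corrects background, equalises the distributions of arrays and summarises probes, so a shift shared by all genes would be removed. The sources used here do not state its version, and as no label names a scan or hybridisation day, batches were not tested. There were 35556 probe sets for each of 15 arrays, with array medians from 5.40 to 5.48, and was used without further normalization. The number of arrays limits the precision.

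Gene names came from the platform annotation, which gives 1 symbol for 21789 probe sets, several for 1621 (not used) and none here for 12146. Each of 19938 genes was represented by its brightest probe set, and those averaging under 5.32, which is percentile 40 over annotated probe sets, were not tested. One limma model (version 3.58.1, R 4.3.3, lmFit and eBayes) held 1 mean per group over the 15 arrays, 7 contrasts were taken, and p-values were two-sided with Benjamini-Hochberg adjustment over all 12056 genes and a threshold of 0.05. The test was tried on simulated data for CR in wildtype (12056 genes, 200 changed). It recovered 93% of changes of size 1 and 65% of size 0.5 on the log2 scale, with 8 false calls. The arrays themselves gave 15 calls for CR in wildtype, and the members' log2 changes there ran from −0.24 to 0.41. Recovery of changes that small, or where few genes change, was not tested. Figures were drawn with matplotlib 3.10.9 in Python 3.11.15.

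All 32 members are named. Statistics are given for members past the threshold and, where fewer than 3 passed, for the 3 with the smallest p, per comparison, and for the 2 pathway genes outside the list with the smallest p. Other values of members are differences or group means from the same fit. The members, the lists and these rules were chosen with earlier results of these data known. Alternatives covered the low-value filter, normalization, probe set rule, variance model, array weights, replicate number as a block and left-out arrays.

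Same-numbered arrays of different groups were treated as unpaired, as no label names a pairing. The correlations of their deviations from group means ran from −0.64 to 0.50 over 21 pairs, 7 of them over 0.1. Over 63 pairs with different numbers they ran from −0.49 to 0.76, 16 of them over 0.1. These correlations cannot show whether mice were paired.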

Additional observations from a re-analysis of the deposited data

Results flagged for a closer look

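Among the 31 members with a probe set, 93 sets of 4 arrays were tested for 1 array far from the other 3 of its group, and 10 were marked. For a single set, chance marks about 1 in 20. The sets share arrays and the members varied together, so that rate cannot judge the count. Of the 10 marked, 6 were high and 3 were on knockout control replicate 3.

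On knockout control replicate 3, Dlat read 9.43 (nearest other array of the group 9.04), Pdk1 read 7.67 (nearest 7.41) and Suclg1 read 9.12 (nearest 8.84). On wildtype CR replicate 4, the array with the highest liver marker set, Pdk1 read 6.93 (nearest 7.35) and Idh3b read 11.52 (nearest 11.62). Pdk3 read 6.21 on knockout control replicate 1 (nearest 5.14), an array with a high germ cell marker set. Suclg2 read 8.07 on wildtype CR replicate 2 (nearest 7.83), and Fh1 read 10.16 on knockout CR replicate 4 (nearest 9.98). Aco1, the cytosolic aconitase that also acts as an iron sensor, read 6.95 on knockout CR replicate 3 (nearest 7.30) and 6.89 on knockout control replicate 4 (nearest 7.13).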

How the results depend on the processing

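Up to 27 alternatives were run for each of 35 results. Of the 7 counts of members past the threshold, 6 were 0 under every alternative run. The 7 medians moved by less than 0.102, the within-group SD of the members' array means. Each median was itself smaller than that, so this says little of their stability. The sign of the median changed under some alternatives for CR in each genotype, for CR averaged and for the difference of responses. For knockout minus wildtype on the control diet the median ran from 0.03 to 0.13. Of the 21 named log2 changes, 0 reversed. They were picked for the smallest p in these data and the alternatives reuse the same arrays, so kept signs say little of their stability. The exception among the 7 counts was the call of Pdk2 for CR averaged over genotypes, with the count of members at 1. The count was 0, with the limma adjusted p of Pdk2 in brackets, without the low-value filter (0.0768), with quantile normalization of all probe sets (0.0768), with arrays centred (0.0758), with the 2 germ cell arrays removed (0.0902) and with 4 arrays of foreign tissue signal removed (0.247), a fit that leaves 1 wildtype control array, assumed to vary like the other groups. With the replicate number as a block the count was also 0, with a limma adjusted p of 0.0872 and a log2 change of 0.21. No label states that the numbers pair mice, and the block changed no other call. The count stayed at 1 with the 60th percentile filter (0.0235), the mean of probe sets (0.0380), probe sets tested singly (0.0330), a trended robust prior (0.0179) and array weights (0.0373). Leaving out 1 array at a time gave counts from 0 to 1, with 12 of 15 fits at 0 and adjusted p-values from 0.0310 to 0.0841. The log2 change of Pdk2 itself ran from 0.16 to 0.23 over all 26 alternatives of that comparison. A fit of the compared groups alone was not run for averages and for the difference of responses, which use all 4 groups. With 3 or 4 arrays a group, changes smaller than the intervals given above could not be resolved, and the cause of the lost calls was not tested.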

Other observations

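Pdk4, the pyruvate dehydrogenase kinase gene that fasting induces in muscle, was among the further pathway genes and is named here after its values were seen. It read 12.51, 12.59, 12.60 and 12.67 in knockout on CR, 8.89, 12.05, 12.50 and 12.73 in knockout on the control diet, 12.62, 12.65, 12.51 and 12.45 in wildtype on CR, and 12.55, 11.95 and 12.32 in wildtype on the control diet. The value of 8.89 is on knockout control replicate 1, the array of that group with the high germ cell marker set, while Pdk2 on the same array read 11.34, the lowest of its group. The CR change of Pdk4 averaged over genotypes was 0.67 (SE 0.44, limma adjusted p = 0.387), and 0.23 without that array (SE 0.11, limma adjusted p = 0.294). In knockout it was 1.05, and 0.17 without that array. On wildtype control replicate 3, where the germ cell set was higher still (3.96, against 3.40), Pdk4 read 12.32. The part of germ cell RNA in the Pdk4 values was not tested.

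Slc25a1, the mitochondrial citrate carrier, spread widely in all groups but wildtype control. It read 7.82, 9.18, 7.46 and 9.09 in knockout on CR, 7.96, 9.07, 8.92 and 8.22 in knockout on the control diet, 9.72, 7.70, 6.83 and 7.95 in wildtype on CR, and 7.11, 7.16 and 7.02 in wildtype on the control diet. Its highest value stands on wildtype CR replicate 1, which also has the highest Pcx value of all arrays and an adipocyte marker set at 0.90. Other arrays differ. On knockout control replicates 2 and 3, at 9.07 and 8.92, the adipocyte set was −0.19 and −0.15. On knockout CR replicates 1 and 2, at 7.82 and 9.18, it was 0.67 and 1.05. The part of adipocyte RNA in Slc25a1 was not tested.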
